A study of Mus musculus with 4 samples.

Results

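Cytochrome c, the apoptosome and a group of caspases were examined in whole fetal mouse brain after acute ethanol exposure. The 8 genes were Cycs (cytochrome c), Diablo, Apaf1, Casp9, Casp8, Casp2, Casp6 and Xiap. Every probe set that the platform annotation gives to exactly one of them was taken, which came to 10 of the 21789 probe sets with 1 gene symbol, in a table of 35556. Cycs had 3 of these and each other gene had 1, and 0 probe sets named a member together with another gene. They are 8 of 19938 genes with a set of their own. The genes were chosen by their place in the apoptosis pathway with the ethanol minus control values already known, in which Cycs lay lower. Their differences between ethanol and control are therefore given as a description, with no test.

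The tissue was whole brain of fetuses of the inbred mouse strain C57BL/6J at embryonic day 16, with their sex recorded as unknown. Pregnant females of the ethanol group were injected with ethanol at 2.5 g per kg in saline on gestational days 14 and 16. Those of the control group received the same volume of saline. Each array held the pooled RNA of 3 mice, with 2 ethanol pools and 2 control pools from 12 mice in all, on Affymetrix whole-transcript arrays. A probe set reads a transcript through several short probes and is reported as 1 log2 signal per array. The litters behind each pool are not named in the labels, so errors rest only on spread between pools. Each standard error below is the moderated one of limma, which draws the variance of a probe set towards a value shared by all sets. It is therefore smaller than the own pools of a widely spread set would give, and larger for a quiet set. With 4 arrays precision is low: the standard error (SE) of a log2 difference had a median of 0.079 over all 21789 probe sets. A lower signal in whole brain can stand for fewer cells of a type or for less RNA per cell, and these cannot be told apart.

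Cytochrome c carries electrons between respiratory complexes III and IV in the space between the mitochondrial membranes. When the outer membrane is opened during apoptosis, it reaches the cytosol and binds Apaf1, which assembles into the wheel-shaped apoptosome and activates Casp9. Casp9 in turn cuts effector caspases. Xiap binds and inhibits Casp9 and some effector caspases. Diablo (also called Smac), released beside cytochrome c, removes Xiap from them. The fetal and newborn brain uses this pathway to remove surplus neurons and precursors, and ethanol is known to raise apoptosis in the developing brain.

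Brain markers were well represented, with 0 of 9 neuronal genes below the lower quartile on all arrays. Their median log2 signal, with Tubb3 and Dcx among them, was 12.4 in both ethanol pools and 12.2 and 12.3 in control 1 and control 2. Tubb3 itself, a neuronal tubulin, was lower in both ethanol pools, at 11.15 and 11.45 against 11.71 and 11.65 in the controls (-0.38 ± 0.11, log2, SE). It was not typical of the list. Only 2 of the 9 neuronal genes had a lower mean in ethanol, Tubb3 and Dcx (-0.0091 ± 0.066), and the median difference was 0.015. Control 1, and to a lesser degree ethanol 2, stood higher in genes of other tissues and of mitosis. The median over 12 skeletal muscle genes was 9.88 in control 1 against 7.28 in control 2, and 7.40 and 8.39 in ethanol 1 and ethanol 2. The median of 9 pericyte and meningeal genes likewise ranged from 9.30 and 9.33 in ethanol 1 and control 2 to 10.1 in ethanol 2 and 10.6 in control 1. The median of 9 mitosis genes was 9.99 in control 1 and 9.53 in control 2, and 9.33 and 9.68 in the ethanol pools. Members are given below with and without control 1 where it changed the picture.

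Transcription of Cycs is known to be driven by nuclear respiratory factor 1 (NRF1) and by CREB, which couple the respiratory chain to growth and energy demand. The 250 bases before the start of Cycs are shown because 2 probe sets annotated to Cycs had the largest differences among the members. Which locus those sets read is uncertain, as described below. They come from RefSeq (GRCm38.p6, chr6:50566570-50566819, minus strand, 5′ to 3′), and capitals mark matches to the CREB element TGACGTCA and to GCATGCGC, a core of NRF1 sites.
Cycs: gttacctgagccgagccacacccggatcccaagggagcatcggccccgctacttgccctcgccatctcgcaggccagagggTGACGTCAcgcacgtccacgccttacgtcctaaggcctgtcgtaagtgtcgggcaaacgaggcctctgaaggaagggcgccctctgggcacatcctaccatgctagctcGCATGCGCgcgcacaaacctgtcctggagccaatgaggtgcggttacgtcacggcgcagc
The element TGACGTCA lay 169 to 162 bases before the start, and GCATGCGC lay 60 to 53 bases before it. Both strands were searched, and the motifs did not overlap. TGACGTCA is its own reverse complement and was found in 1.55% of the 32851 windows of the same length in that table, and GCATGCGC or its reverse complement GCGCATGC in 2.26%. The half-site TGACG, with its reverse complement CGTCA, occurs in 17.8% of windows. In Cycs it lay once more outside the full element, 14 to 10 bases before the start.

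All 8 genes had a window in that table, 10 windows in all, since Xiap had 3. The NRF1 core was found in 2 of these 10, those of Cycs and Apaf1. In Apaf1 it lay on the other strand, 113 to 106 bases before the start. The stretch around it (chr10:91082837-91082868, minus strand, GRCm38.p6) is set beside that of Cycs (chr6:50566610-50566641, minus strand), with the core in capitals.
Cycs: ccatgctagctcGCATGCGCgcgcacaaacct
Apaf1: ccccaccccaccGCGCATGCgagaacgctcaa
The full element TGACGTCA was found in 1 of the 10 windows, that of Cycs, and the half-site in 3, those of Cycs, Diablo and 1 window of Xiap. A match is a run of letters in the window, and binding was not measured here.

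Cycs was lower in ethanol in 2 of its 3 probe sets. Set 10528170 read 12.15 and 12.60 in ethanol 1 and ethanol 2, and 12.85 and 12.93 in control 1 and control 2. Both ethanol pools lay below both control pools, and ethanol 1 was the lowest. Ethanol minus control came to -0.51 ± 0.15 on the log2 scale (SE, n = 2 pools per group), or 0.700 times the control signal. Control 1 minus control 2 was -0.074 and ethanol 2 minus ethanol 1 was 0.45, so most of the spread lay within the ethanol group. Against the 2 control pools, ethanol 1 stood at -0.70 and -0.78, and ethanol 2 at -0.25 and -0.33.

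Set 10462136 ran in parallel, at 11.98 and 12.42 in the ethanol pools and 12.66 and 12.62 in the control pools, pool 1 before pool 2. Its difference was -0.44 ± 0.15 (SE, 2 arrays per group), or 0.739 times the control signal. Again ethanol 1 was lowest and ethanol 2 lay between it and the controls. Each of the 2 sets lists 6 transcript accessions. The labels do not say whether their probes overlap, so the pair is not counted as separate evidence.

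The third set, 10544687, did not follow. It read 6.09 and 5.98 in the ethanol pools and 6.16 and 5.91 in the control pools, and the groups overlapped. The difference was 0.0057 ± 0.10 (SE, 2 arrays per group). All 4 values lay below the lower quartile of their array, which was 6.45 to 6.55. This set lists 1 accession.

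Cycs has processed pseudogenes, copies of its mature transcript elsewhere in the genome, and the RefSeq table names Cycs-ps1, Cycs-ps2 and Cycs-ps3. Probes for the transcript and for a near-identical copy can read the same RNA, so which locus the 2 bright sets report is uncertain. The numbers of the sets on this array mostly run along the chromosomes. Of the 20 annotated sets numbered nearest to 10544687, 20 belong to genes on the chromosome of Cycs, with Npvf and Osbpl3 among the nearest. Of the 20 nearest to 10528170 this held for 0, with Anapc5 and Grm3 next to it, and of the 20 nearest to 10462136 for 1, with Tmem252 and Dock8 next to it. For the 7 other members it held for 18 to 20 of 20. The set numbered beside the neighbours of Cycs was thus the dim one, and the 2 sets that were lower in ethanol are numbered among genes of other chromosomes.

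**Figure D1:**
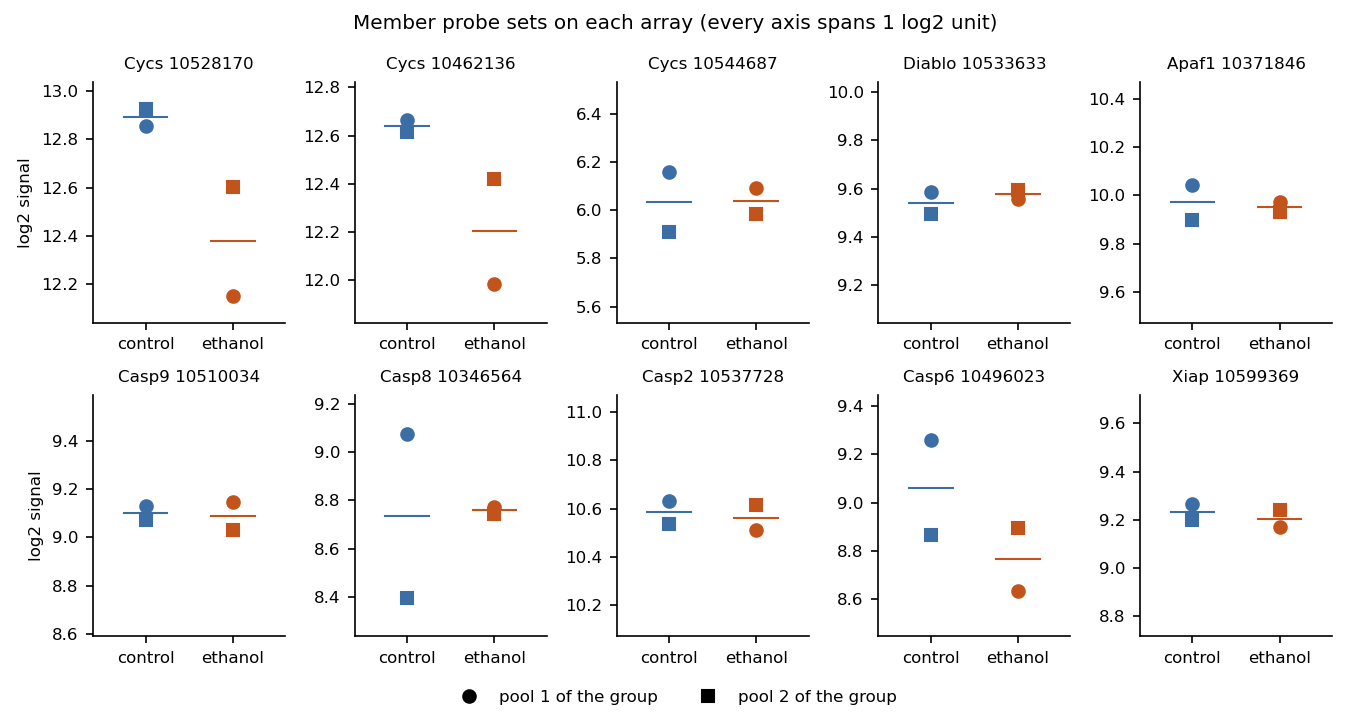
Log2 signal of the 10 member probe sets on each array, with control pools in blue, ethanol pools in orange, circles for pool 1 and squares for pool 2 of a group, and a line at each group mean; every vertical axis spans 1 log2 unit. Only the first 2 Cycs sets have both ethanol pools below both control pools, and Casp8 shows its largest gap between the 2 control pools.

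Diablo, which frees caspases from their inhibitors, was at 9.56 and 9.59 in ethanol 1 and ethanol 2 and at 9.59 and 9.49 in control 1 and control 2. The groups overlapped, with a difference of 0.037 ± 0.071 (SE, 2 arrays per group). All 4 arrays lay within 0.10 of each other. Apaf1, the scaffold of the apoptosome, was at 9.97 and 9.93 in the ethanol pools and at 10.04 and 9.90 in the control pools, a difference of -0.019 ± 0.079. Here the 2 control pools enclosed both ethanol pools.

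Casp9, the initiator caspase that the apoptosome activates, read 9.15 and 9.03 in ethanol 1 and ethanol 2 and 9.13 and 9.07 in control 1 and control 2. The ethanol pools enclosed the control pools, and the difference was -0.0099 ± 0.075 (SE, 2 arrays per group). Casp2, the initiator that the PIDDosome activates after damage to chromosomes or centrosomes, read 10.51 and 10.61 in ethanol and 10.63 and 10.54 in control, a difference of -0.023 ± 0.077. Xiap, the direct inhibitor of Casp9 and of some effector caspases, read 9.17 and 9.24 in ethanol and 9.27 and 9.20 in control. Its difference was -0.030 ± 0.071. In both genes an ethanol pool lay between the 2 control pools.

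Casp8, the initiator caspase of death receptors, separated the control pools rather than the treatments. It read 9.08 in control 1 and 8.40 in control 2, and 8.77 and 8.75 in the ethanol pools. The ethanol pools lay between the control pools, and the difference of the means was 0.022 ± 0.21 (SE, 2 arrays per group). The gap of 0.68 between the control pools was reached or passed by 1.16% of all 21789 probe sets, while ethanol 2 minus ethanol 1 was -0.026. Without control 1 the ethanol difference came to 0.36, and without control 2 to -0.32. Birc5, the survivin gene of dividing cells, had the same order of arrays, at 7.90 and 7.38 in the control pools and 7.66 and 7.58 in the ethanol pools, and was named here after its values were seen. The 8 microglial and macrophage genes had medians of 7.73 and 7.58 in the control pools and 7.52 and 7.66 in the ethanol pools, and their part in the Casp8 values was not tested.

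Casp6, an effector caspase that cuts lamin A and takes part in the pruning of axons, read 8.63 and 8.90 in the ethanol pools and 9.26 and 8.87 in the control pools. The groups overlapped, since ethanol 2 exceeded control 2. Ethanol minus control came to -0.30 ± 0.16 (log2, SE), or 0.814 times the control signal, and the control pools differed by 0.39. Without control 1 the difference shrank to -0.10, and without control 2 it was -0.49. The median of the mitosis genes had the same highest and lowest arrays as Casp6, and their part in its values was not tested.

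Across the 10 sets, 2 had both ethanol pools below both control pools, 0 had both above, and 8 overlapped. Both were Cycs sets, and among the 7 sets of the other genes 0 were apart. Over all 21789 sets, both ethanol pools lay below both controls in 14.3% and above in 16.9%, so that 31.2% did not overlap. The median difference of the 10 sets was -0.021, that of the 7 sets without Cycs -0.019, and that of all sets 0.0065. Values below 0 were found in 7 of the 10 and in 46.8% of all sets. Of these 7, Apaf1, Casp9, Casp2 and Xiap lay close to 0, from -0.030 to -0.0099. Without control 1 they came above 0, at 0.052, 0.019, 0.023 and 0.0029. The 2 Cycs sets and Casp6 stayed below 0, at -0.55, -0.41 and -0.10. With each array centred on its median, the median difference of the 10 sets was 0.0041. A size of at least 1.2-fold was reached by 3 of the 10, the 2 Cycs sets and Casp6, and by 2.43% of all sets. The genes were chosen with this contrast known, and the 2 Cycs sets are not separate evidence. The shares of all sets are thus a background for reading the counts and no test of the members.

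Limma called 0 of 21789 sets (0%) at an adjusted p under 0.05, and 0.978 was the smallest adjusted p. Without adjustment, 632 sets (2.9%) had a p under 0.05, and the ordinary test without shared variance also called 0 after adjustment. With a p under 0.05 before adjustment and a size of 1.2-fold or more, 1.01% of all sets passed, 0.569% lower and 0.436% higher in ethanol. The 2 Cycs sets were among them, a count from the contrast with which the genes were chosen. The count of 2 members became 1 without ethanol 1, 3 without control 1 and 4 without control 2.

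**Figure D2:**
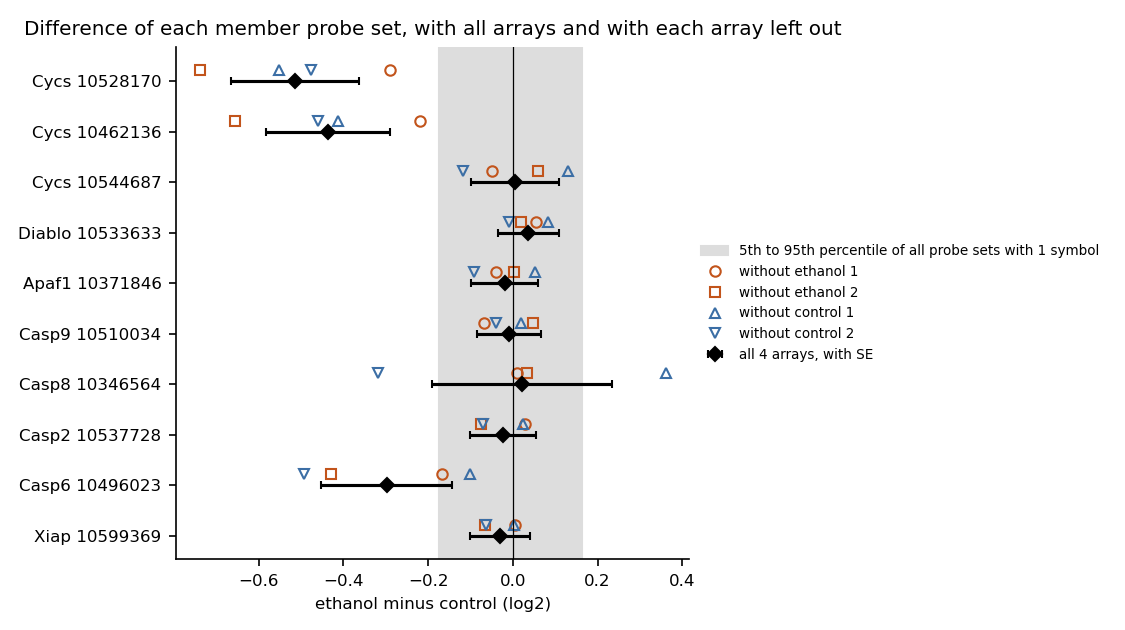
Ethanol minus control (log2) for the 10 member probe sets, with black diamonds and SE bars for all 4 arrays and open symbols for the value with 1 array left out; the grey band runs from the 5th to the 95th percentile of all 21789 probe sets, -0.17 to 0.16. The first 2 Cycs sets stay below 0 with any array left out, between -0.74 and -0.22, whereas Casp8 moves from -0.32 to 0.36. The band comes from differences over all 4 arrays and is no measure for the open symbols. The genes were chosen with this contrast known.

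The lower Cycs signal rested on both ethanol pools to unequal degrees. Set 10528170 stood at -0.29 without ethanol 1 and at -0.74 without ethanol 2, and set 10462136 at -0.22 and -0.66. Without control 1, the pool with the most muscle signal, the differences were -0.55 and -0.41, and without control 2 they were -0.48 and -0.46. Of the 12 muscle genes 12 had a lower mean in ethanol, with 0 of them below the lower quartile on all arrays. Their summed signal on the log2 scale was 11.1 and 12.8 in the ethanol pools and 14.3 and 11.0 in the control pools. Control 1 was the highest array for set 10462136 and control 2 for set 10528170. The part of muscle signal in the Cycs values was not tested.

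**Figure D3:**
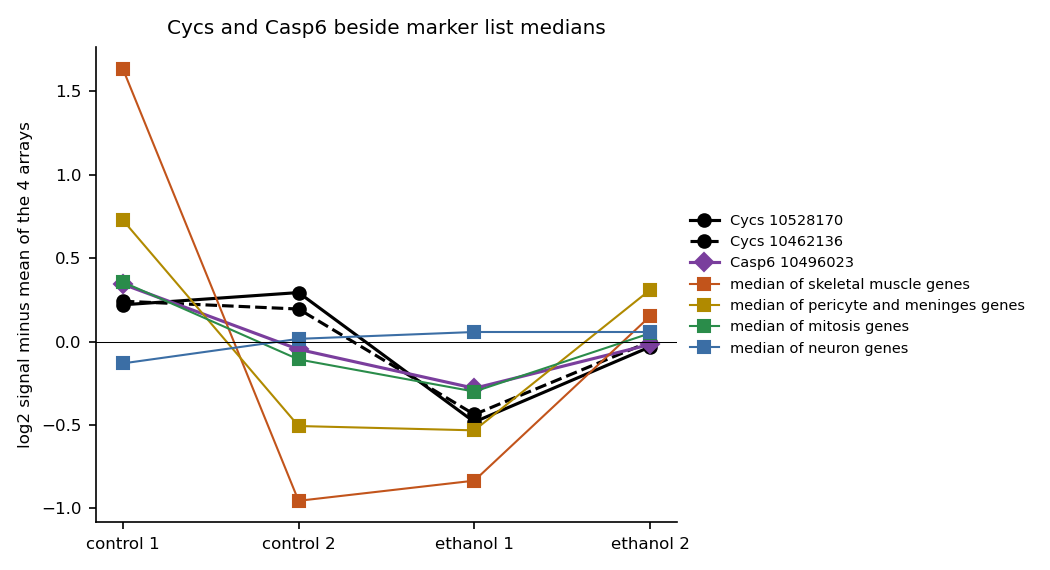
Log2 signal on each array minus the mean of the 4 arrays, for the 2 bright Cycs sets, Casp6 and the medians of 4 marker lists; lines only join the points of one gene or list. Both control pools are high in Cycs, while the muscle and pericyte lists are high in control 1 and low in control 2, and Casp6 runs close to the mitosis list.

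The genes whose pattern over the 4 arrays was most like Cycs set 10528170 were sought among 10420 brighter probe sets of other genes, by the root mean square distance of values centred on their own mean. The nearest was Tbc1d17, a GTPase-activating protein for Rab proteins, at a distance of 0.034. Its log2 signal was 8.52 and 9.03 in the ethanol pools and 9.29 in both control pools. Ciapin1, which serves in cytosolic iron-sulfur protein assembly and was named for its anti-apoptotic effect, followed at 0.041, with 9.89 and 10.27 in ethanol and 10.64 and 10.66 in control. Bex2, Tbcb (a tubulin folding cofactor) and Cisd1 (a protein of the outer mitochondrial membrane that holds an iron-sulfur cluster) came next at 0.054, 0.054 and 0.055. The choice by distance fixes that these 5 genes resemble the Cycs set, with ethanol 1 lowest, ethanol 2 next and the controls highest. The second Cycs set lay at a distance of 0.058, Casp6 at 0.21, the third Cycs set at 0.35 and Casp8 at 0.41, where the median of all sets considered was 0.30. With 4 arrays, a short distance describes these pools and says nothing of shared control.

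The wider pathway was read from 41 genes in 7 lists, and 36 of these could be measured through an own probe set. The rest were not analysed here. Limma called 0 of the 36 at an adjusted p under 0.05 and 0 in either direction by the rule of an unadjusted p under 0.05 and 1.2-fold or more. Of the 36, 19 lay below and 17 above 0, with a median of -0.012. Both ethanol pools lay below both controls in 1 gene and above in 5, against 14.3% and 16.9% of all sets. Members and pathway lists were chosen with earlier results known.

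Among the proteins that share the intermembrane space with cytochrome c or antagonise Xiap, 3 of 5 lay below 0 (median -0.073). The flavoprotein Aifm1, which supports respiratory chain assembly and can move to the nucleus in cell death, had the largest difference of the 36, -0.23 ± 0.14 (SE). Its signal was 9.31 and 9.61 in the ethanol pools and 9.82 and 9.56 in the control pools, so the groups overlapped (limma, adjusted p = 0.978). Of the cytochrome c relatives, Hccs, the enzyme that attaches haem to cytochrome c, stood at -0.077 ± 0.075. Cyct, the testis form, stood at 0.043 ± 0.081, with 5.88 to 6.04 over the 4 arrays, near the dim end.

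The other caspases with a set of their own were Casp1, Casp4, Casp12 and Casp14, 1 below and 3 above 0 (median 0.023). All were dim, and Casp14, the caspase of cornifying skin, had the largest difference at 0.071 ± 0.092 (SE). Of 6 adaptors of death receptors and the PIDDosome, 3 lay below and 3 above 0 (median 0.0022). Casp8ap2, a partner of Casp8 that also serves histone gene expression, stood at -0.16 ± 0.13, with 9.88 and 10.17 in ethanol and 10.31 and 10.07 in control. Of 8 other inhibitor of apoptosis genes, 4 lay below and 4 above 0 (median -0.0051). Birc7 stood at 0.19 ± 0.083, with its signal of 5.57 to 5.84 below the lower quartile on all arrays.

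Of 4 regulators of the apoptosome, 3 lay below 0 (median -0.057). Anp32a, an acidic nuclear protein that promotes apoptosome activity in extracts, stood at -0.11 ± 0.070 (SE). It was the 1 gene of the 36 whose ethanol pools, 11.51 and 11.59, both lay below the control pools, 11.67 and 11.65. The opposite order was found in 5 of the 36, Birc7 and Dffa among them. Of 7 caspase substrates, 4 lay below and 3 above 0 (median -0.021). Lmnb1, the lamin B of the nuclear envelope, stood at -0.12 ± 0.090. Dffa, the inhibitor that caspases cut to release the DNA-degrading nuclease Dffb, stood at 0.11 ± 0.078, and was named after its value was seen.

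**Figure D4:**
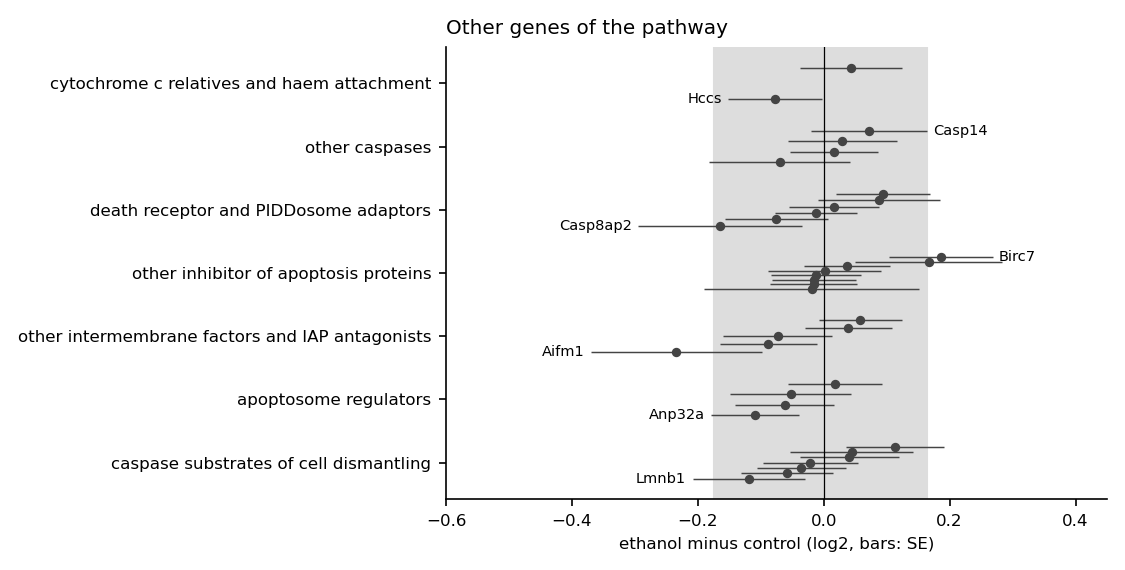
Ethanol minus control (log2, bars are SE) for the 36 pathway genes measured, by list, with the gene of largest difference named in each; the grey band runs from the 5th to the 95th percentile of all probe sets. All but Aifm1 and 2 inhibitor of apoptosis genes lie inside the band, with differences from -0.23 to 0.19.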

How the data were processed

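The deposited table holds log2 signals, 1 per probe set and array, made by the authors. The log base was taken from the range of the values, and the submitters' processing notes name Partek 6.6. The steps of background correction, normalization and summary are not given in the sources. Those steps bear most on dim probe sets. Of 35556 probe sets, 21789 have 1 symbol, 1621 several and 12146 none, per the platform annotation. A gene table of assembly GRCm38.p6 served to bring symbols up to date by Entrez identifier (21698 matched, 91 kept as annotated). The table has 0 columns of other samples.

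Values were used as deposited. The 2 ethanol arrays were set against the 2 control arrays in limma 3.58.1 (R 4.3.3, lmFit and eBayes without trend, two-sided, 2 residual and 5.60 total degrees of freedom), with Benjamini-Hochberg adjustment over the 21789 sets. The fit was tested on simulated data. An exact permutation test of 2 against 2 arrays cannot go below p = 0.333. All member sets are named, with the gene of largest difference in each pathway list and the 5 genes nearest to Cycs. A pathway gene with several sets was represented by the set of highest mean. Members and lists were chosen with earlier results of these data known. Alternatives were other units of testing, scalings, variance models, a filter on dim sets, a replicate block, single Cycs sets and leaving out each array.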

Additional observations from a re-analysis of the deposited data

How the results depend on the processing

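The 0 sets past the adjusted threshold became 20 without control 2, with 0 members or pathway genes among them, and ranged from 0 to 20 with an array left out. The 219 sets past the relaxed rule (p under 0.05 before adjustment, 1.2-fold or more) became 993 over all probe sets, 39 in the ordinary test (0 of them members), 7 at a fold of 1.5, and 152 to 1426 with an array left out (1309 without ethanol 2, 1426 without control 2). They were 95 higher and 124 lower, and 187 higher and 113 lower with each array centred on its median. The pathway count of 0 became 2 without ethanol 2 and 3 without control 2, and ranged from 0 to 3. The 6800 sets whose groups did not overlap became 11200 in the whole table, 3770 in the brighter sets and 12642 to 16190 with an array left out, where fewer arrays enter. The Cycs difference of -0.51 was 0.0057 in set 10544687, -0.32 for the mean of the 3 sets, -0.49 to -0.51 under the other scalings and -0.74 to -0.29 with an array left out. The median of the 10 members was -0.10 without control 2 and ranged from -0.10 to 0.021 with an array left out; the cause was not tested. The labels give no meaning to the replicate numbers, and the deviations of arrays of the same number had a correlation of -0.487 across probe sets. With the number as a block, 0 sets were called, 211 passed the relaxed rule and 0 pathway genes did, and member values were unchanged by construction. With crossed pairing, chosen after the data were seen, 0 sets were called, 432 passed the relaxed rule, 3 members among them, and 0 pathway genes did.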
